A study of Arabidopsis thaliana with 60 samples.

Results

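MSRB5 (AT4G04830) and MSRB6 (AT4G04840) are neighbouring genes on chromosome 4 of Arabidopsis thaliana, each encoding a methionine sulfoxide reductase of the B type. Their probe sets were taken by annotation: those assigned to 1 gene with the symbol MSRB5 or MSRB6. This gave 2 genes of 13350 with a probe set of their own, each by 1 of the 22810 probe sets on the array, and both were bright enough in at least 1 leaf set to enter the fit. The genes had been chosen because of their signal in these same 60 arrays, MSRB6 for its level in cauline against rosette leaves. Their levels and differences are therefore given as a description, with standard errors and intervals and with no p-value, and tests are given only for other genes.

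The 60 arrays form 20 leaf sets of 3. The wild-type accession Col-0, on soil under continuous light at 23 °C and 65% relative humidity, gave seed leaves (cotyledons), the first true leaves (leaves 1 and 2), leaf 4 at 1 cm, even-numbered rosette leaves from 2 to 12, 3 parts of leaf 7 (petiole, proximal and distal), cauline leaves, borne by the flowering stem, and senescing leaves. Rosette leaves 2 to 12 share a harvest, when leaf 12 measured about 1 cm. Leaf number thus also orders them by age, and position and age cannot be told apart. The line labelled gl1T, in a Col-0 background, gave leaf 4 at 1 cm and leaf 12, the latter with no labelled length, under the same conditions. The labels state neither the allele nor a transgene of that line, and its identity was not checked here, because GL1 had no single-gene probe set. Col-0 also gave 3 sets of vegetative rosettes (sets 87, 89 and 90) in 10 h of light and 14 h of dark at 22 °C, and leaves of no stated number grown in long days at 22 °C on medium with 1% sucrose. The short-day sets are whole rosettes labelled for phase change, with no stage that separates them in the text used here. The Col-0 leaf 4 set at 1 cm carries a label of soil contamination.

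Methionine in proteins is easily oxidised to methionine sulfoxide, in an S and an R form. Reductases of the A type return the S form to methionine and those of the B type the R form, mostly with electrons from thioredoxin, and plants carry several genes of both types. In Arabidopsis MSRB1 and MSRB2 act in plastids and MSRB3 in the endoplasmic reticulum, whereas MSRB5 and MSRB6 are predicted to stay in the cytosol. In the reference gene order MSRB3, MSRB4, a pseudogene (AT4G04820), MSRB5 and MSRB6 follow each other without another gene between them.

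Signals are the deposited MAS5 values on a linear scale, given as mean ± SD over 3 arrays. Because probe sets differ in how strongly they bind, the signal of MSRB5 is nowhere set against that of MSRB6. Differences are on the scale log2(signal + 6.139) from 1 limma fit to all 20 sets, ± SE. A probe set of another gene passed when its Benjamini-Hochberg adjusted p was below 0.05 and its difference at least 1 on that scale. MSRB5 and MSRB6 are described by the size of the difference alone. The share of all tested probe sets that passed stands beside each comparison as its background, and nothing about MSRB5 or MSRB6 is read from it. Arrays of a set correlated with r of 0.982 to 0.990. The number of arrays limits the precision. The labels do not say whether the 3 arrays of a set came from separate plants, so every spread given here may be technical.

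The genes were at their highest and lowest in different leaf sets. MSRB5 was highest in rosette leaf 2 (1555 ± 153) and lowest in leaf 4 at 1 cm (54.2 ± 4.46), a 28.7-fold range of mean signal. That lowest set is the one labelled as contaminated with soil, and the next lowest was short-day set 90 (88.3 ± 9.89). MSRB6 was highest in short-day set 87 (1593 ± 174) and lowest in senescing leaves (12.4 ± 1.96). The senescing signal is dim, under the 40th percentile of its arrays, so the range is given as a bound. With dim arrays taken at that percentile, set 87 was at least 86.6-fold above senescing leaves. In rosette leaf 2, where MSRB5 was at its highest, MSRB6 (63.7 ± 1.73) lay below 17 of the other sets and above only cauline and senescing leaves. In whole tissue, a lower signal from fewer cells of a type cannot be told apart from less RNA per cell.

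**Figure D1:**
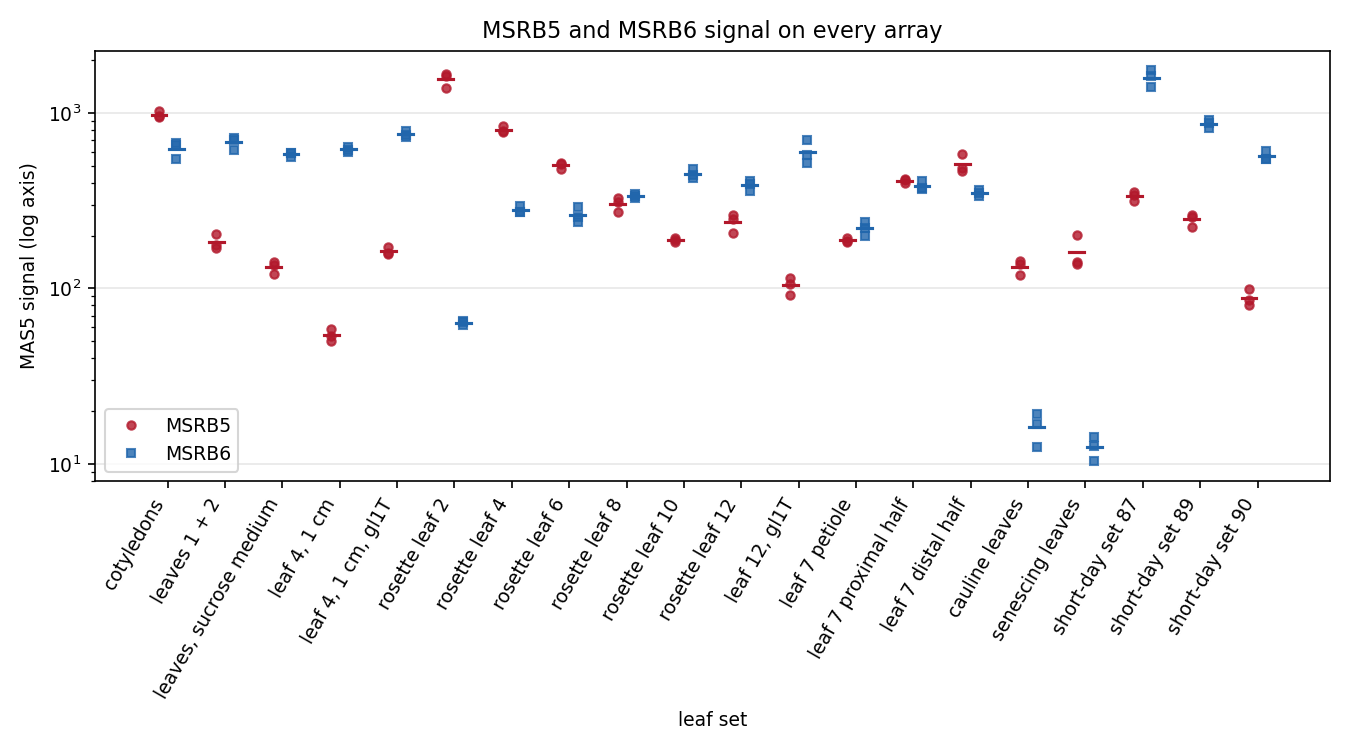
Signal of MSRB5 (red circles) and MSRB6 (blue squares) on each of the 60 arrays, by leaf set, on a log axis of MAS5 signal, with a bar at each set's mean of 3 arrays. MSRB5 peaks in rosette leaf 2 at 1555, MSRB6 is lowest in senescing and cauline leaves at 12.4 and 16.2, and the heights of the genes are not comparable with each other because their probes differ.

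Ordered by mean, MSRB5 stood in rosette leaf 2 above every other set, followed by cotyledons (977 ± 42.3) and rosette leaf 4 (803 ± 34.6), with no overlap among the arrays of these 3 sets. Below them came the distal part of leaf 7 (511 ± 63.0) and rosette leaf 6 (503 ± 21.5), whose arrays overlapped, then the proximal part of leaf 7 (410 ± 12.6), clear of both neighbours. Short-day set 87 (336 ± 19.6) overlapped rosette leaf 8 (304 ± 28.5), and short-day set 89 (247 ± 20.9) overlapped rosette leaf 12 (239 ± 29.0). From rosette leaf 10 (189 ± 4.82) down, each set's arrays overlapped those of the next through the petiole (188 ± 4.87), leaves 1 and 2 (184 ± 18.9), gl1T leaf 4 (162 ± 7.94), senescing leaves (161 ± 35.7), cauline leaves (133 ± 12.9) and the sucrose-medium leaves (133 ± 10.3). The lowest 3 sets were gl1T leaf 12 (104 ± 12.0), short-day set 90 (88.3 ± 9.89) and Col-0 leaf 4 at 1 cm, of which the first and the last were clear of the set above them. In all, 10 of the 19 pairs of neighbours in this order overlapped.

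For MSRB6 the order began with short-day set 87, then set 89 (869 ± 48.4) and gl1T leaf 4 (756 ± 33.3), with no overlap among the arrays of these 3 sets. A run of overlapping sets followed: leaves 1 and 2 (682 ± 57.0), cotyledons (626 ± 70.7), Col-0 leaf 4 at 1 cm (619 ± 21.8), gl1T leaf 12 (598 ± 91.8), the sucrose-medium leaves (580 ± 15.9) and short-day set 90 (569 ± 36.4). These 9 sets hold the 3 short-day sets, the sucrose-medium leaves, both gl1T sets, and the cotyledons, leaves 1 and 2 and 1 cm leaf 4 of Col-0. Rosette leaf 10 (449 ± 28.2) opened the middle of the order, followed by rosette leaf 12 (387 ± 25), the proximal (384 ± 21.2) and distal (349 ± 14.5) parts of leaf 7, rosette leaf 8 (336 ± 8.14), rosette leaf 4 (280 ± 14.8), rosette leaf 6 (263 ± 26) and the petiole (220 ± 19.6). Within it, rosette leaf 12 overlapped the proximal part, the distal part overlapped leaf 8, and leaf 4 overlapped leaf 6. The last of these overlaps rests on the first leaf 6 array alone, whose tissue field says leaf 4. Rosette leaf 2 was clear of the petiole above it, and cauline (16.2 ± 3.50) and senescing leaves closed the order and overlapped each other. In all, 9 of the 19 pairs of neighbours overlapped.

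Across the 6 rosette leaf positions the genes ran in opposite directions, MSRB5 highest in the lowest-numbered leaf and MSRB6 lowest there. For MSRB5 the arrays read 1664, 1621 and 1379 in leaf 2, 776, 791 and 842 in leaf 4, and 510, 480 and 521 in leaf 6. They read 328, 310 and 273 in leaf 8, 194, 184 and 189 in leaf 10, and 262, 207 and 250 in leaf 12. Each step from leaf 2 to leaf 10 was downward without overlap, while leaf 12 lay 1.27-fold above leaf 10, also without overlap. The ratio of mean signals of leaf 2 to leaf 12 was 6.49, and that of leaf 2 to leaf 10 was 8.23. The fitted change from leaf 2 to leaf 12 was -2.89 ± 0.086 on the log2 scale.

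For MSRB6 the arrays read 65.3, 61.9 and 64.0 in leaf 2, 271, 272 and 297 in leaf 4, and 291, 256 and 240 in leaf 6. They read 345, 335 and 329 in leaf 8, 441, 426 and 481 in leaf 10, and 359, 408 and 393 in leaf 12. The low leaf 2 arrays were clear of all others, and leaf 10 lay 1.16-fold above leaf 12 without overlap. Leaves 4 and 6 overlapped only through the leaf 6 array at 291, whose tissue field says leaf 4. The other leaf 6 arrays lay below every leaf 4 array. Mean signal in leaf 12 was 6.07-fold that of leaf 2, and the fitted change was 2.12 ± 0.079. The step from leaf 2 to leaf 4 was the largest of the 5. Of all tested probe sets 23% passed in this comparison, 11.4% as lower and 11.6% as higher in leaf 12. Whether the slopes of the genes differ was not tested, since both were chosen on these arrays. The senescent-leaf markers WRKY53 and WRKY6 summed to 156 to 165 in leaf 2 and 213 to 224 in leaf 4. They summed to 168 to 185 in leaf 6 and 125 to 146 in leaf 12. Neither marker passed along leaf position. Their sum was higher in leaf 4 than in leaf 2, where MSRB5 was highest, and their part in the MSRB5 values was not tested.

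**Figure D2:**
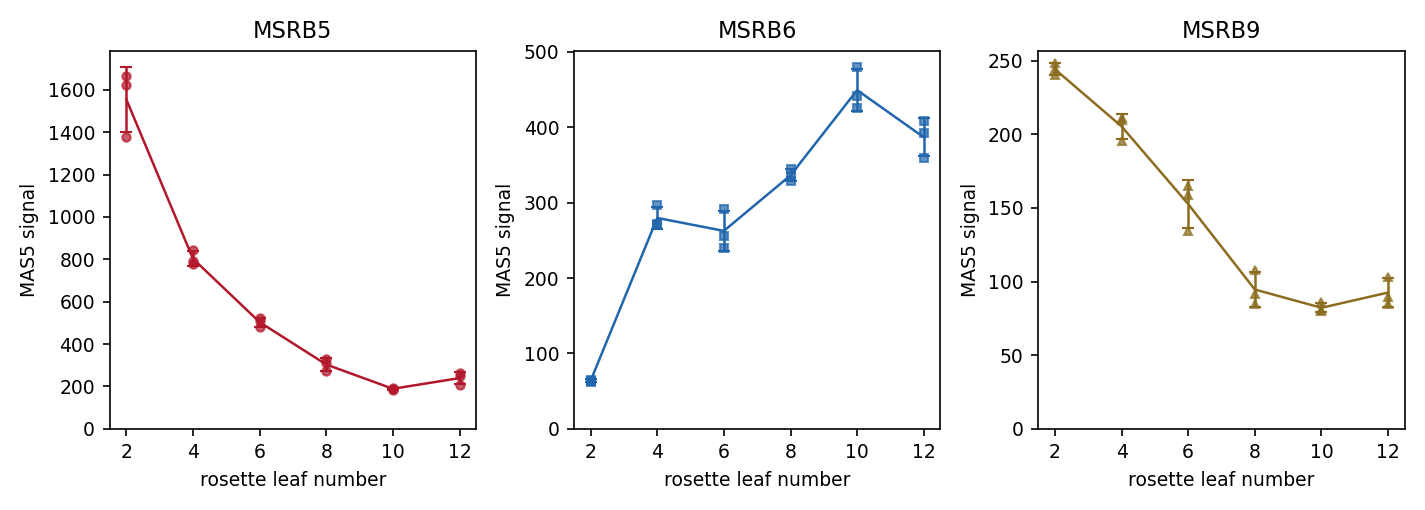
MAS5 signal (linear axes from 0, a separate scale for each gene) of MSRB5, MSRB6 and MSRB9 against rosette leaf number, with points for the 3 arrays and a line through set means ± SD. MSRB5 and MSRB9 are highest in leaf 2, at 1555 and 244, while MSRB6 is lowest there at 63.7 and highest in leaf 10 at 449.

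Among the relatives, MSRB9 (AT4G21850), another predicted cytosolic B-type reductase, followed the direction of MSRB5. Its arrays read 240, 245 and 248 in leaf 2 and 84.6, 103 and 89.8 in leaf 12, and it fell by 1.60 ± 0.12 (limma, adjusted p = 4.97e-18). MSRB3 (AT4G04800), of the endoplasmic reticulum, had a difference of -0.86 ± 0.13 (limma, adjusted p = 2.78e-08), below the size required. MSRA5 (AT2G18030), an A-type reductase, differed by 0.09 ± 0.12 (limma, adjusted p = 0.474, 95% interval -0.14 to 0.33). Over the 6 leaf means the correlation with MSRB5 was r = 0.981 for MSRB9 and 0.956 for MSRB3, and that of MSRB6 with MSRB5 was -0.897. These are descriptions over n = 6 sets that share a harvest, and the leaf 2 set weighs heavily in them.

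Cotyledons, the seed leaves, were compared with the first true leaves, leaves 1 and 2. MSRB5 read 1025, 956 and 949 in cotyledons against 206, 176 and 170 in leaves 1 and 2. The cotyledon arrays were all higher, 5.31-fold by mean signal, with a difference of -2.37 ± 0.10. MSRB6 read 675, 545 and 657 in cotyledons against 705, 617 and 724 in leaves 1 and 2. These arrays overlapped, and the difference of 0.13 ± 0.094 had a 95% interval of -0.061 to 0.32. Of all tested probe sets 6.99% passed as lower in leaves 1 and 2. MSRB9 also fell from cotyledons to leaves 1 and 2, by 1.81 ± 0.14 (limma, adjusted p = 8.39e-17), and MSRB3 had -0.81 ± 0.15 (adjusted p = 6.54e-06), not large enough to pass. The summed signal of the senescent-leaf markers WRKY53 and WRKY6 moved with MSRB5 here, from 216 to 223 in cotyledons down to 44.2 to 57.3 in leaves 1 and 2. Their part in the result was not tested.

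Leaf 4 was sampled at 1 cm and again with the later rosette. At 1 cm MSRB5 read 53.6, 59.0 and 50.1, and in the later leaf 4 it read 776, 791 and 842. The later leaf was 14.8-fold higher by mean signal and 3.75 ± 0.10 higher on the log2 scale. MSRB6 read 598, 618 and 642 at 1 cm and 271, 272 and 297 later, 2.21-fold lower, with a difference of -1.13 ± 0.094. Neither gene's arrays overlapped, and 12.9% of tested probe sets passed as higher and 11.6% as lower in the later leaf. Leaf 12, itself about 1 cm long, stood between the other sets. It was 4.42-fold above the 1 cm leaf 4 for MSRB5 (difference 2.02 ± 0.10), in a comparison where 3.36% of probe sets passed as higher. For MSRB6 the 1 cm leaf 4 was 1.60-fold above leaf 12 (difference of leaf 12 minus leaf 4 -0.67 ± 0.094). MSRB9 rose in both comparisons, by 2.57 ± 0.14 in the later leaf 4 (limma, adjusted p = 2.45e-23) and by 1.47 ± 0.14 in leaf 12 (limma, adjusted p = 3.38e-13). The set labelled as contaminated with soil is the partner in both, and WRKY53 and WRKY6 summed to 26.1 to 32.3 in it, against 213 to 224 in the later leaf 4 and 125 to 146 in leaf 12. Of these 2 markers, 1 passed as higher in each comparison. The part of the soil label or of the markers in these differences was not tested.

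The gl1T line differed from Col-0 in opposite directions in the 2 leaves for MSRB5. In leaf 4 at 1 cm, gl1T read 158, 172 and 158 against 53.6, 59.0 and 50.1 in Col-0, all 3 arrays higher. The ratio of means was 3 and the difference 1.48 ± 0.10. In leaf 12, gl1T read 106, 115 and 91.2 against 262, 207 and 250, all 3 arrays lower. Here Col-0 stood 2.30-fold above gl1T, with a difference of -1.16 ± 0.10. Of all tested probe sets 3.95% passed in leaf 4, 3.4% as higher, and 3.82% in leaf 12, 2.18% as lower. The leaf 12 difference minus the leaf 4 difference was -2.64 ± 0.14. In that comparison of differences 5.33% of probe sets passed as lower, with a difference of at least 1. The Col-0 leaf 4 set is the one labelled as contaminated with soil, and the part of this in the gl1T differences was not tested.

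MSRB6 was somewhat higher in gl1T in both leaves. In leaf 4 the line read 745, 793 and 729 against 598, 618 and 642, a difference of 0.28 ± 0.094. In leaf 12 it read 575, 699 and 520 against 359, 408 and 393, a difference of 0.61 ± 0.094. The arrays did not overlap in either leaf, both differences were below 1, and the difference between leaves was 0.33 ± 0.13. Replicate 1 of gl1T leaf 12 had a GAPDH 3' to 5' signal ratio of 3.23, against 1.34 and 1.39 in the other arrays of its set. Without it the leaf 12 differences were -1.17 ± 0.11 for MSRB5 and 0.63 ± 0.11 for MSRB6.

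MSRB9 shared the leaf 4 direction of MSRB5, rising in gl1T by 1.48 ± 0.14 (limma, adjusted p = 3.10e-13), from 24.5, 33.0 and 31.5 to 90.9, 91.4 and 97.2. In leaf 12 it read 61.8, 61.6 and 77.2 in gl1T against 84.6, 103 and 89.8, a difference of -0.44 ± 0.14 (adjusted p = 0.0118) that did not reach the required size. The change between leaves passed at -1.92 ± 0.19 (limma, adjusted p = 4.82e-12). For MSRB3 the gl1T differences were 0.04 ± 0.15 in leaf 4 and 0.26 ± 0.15 in leaf 12, and for MSRA5 they were -0.24 ± 0.14 and 0.13 ± 0.14, none of which passed. WRKY53, a transcription factor used here as a senescence marker, rose in gl1T leaf 4 by 2.63 ± 0.084 (limma, adjusted p = 1.16e-31) and had -0.94 ± 0.084 in leaf 12, and WRKY6 passed in neither. WRKY53 and WRKY6 together summed to 156 to 160 in gl1T leaf 4 and 71.4 to 72.2 in gl1T leaf 12, and their part in the MSRB5 differences was not tested.

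**Figure D3:**
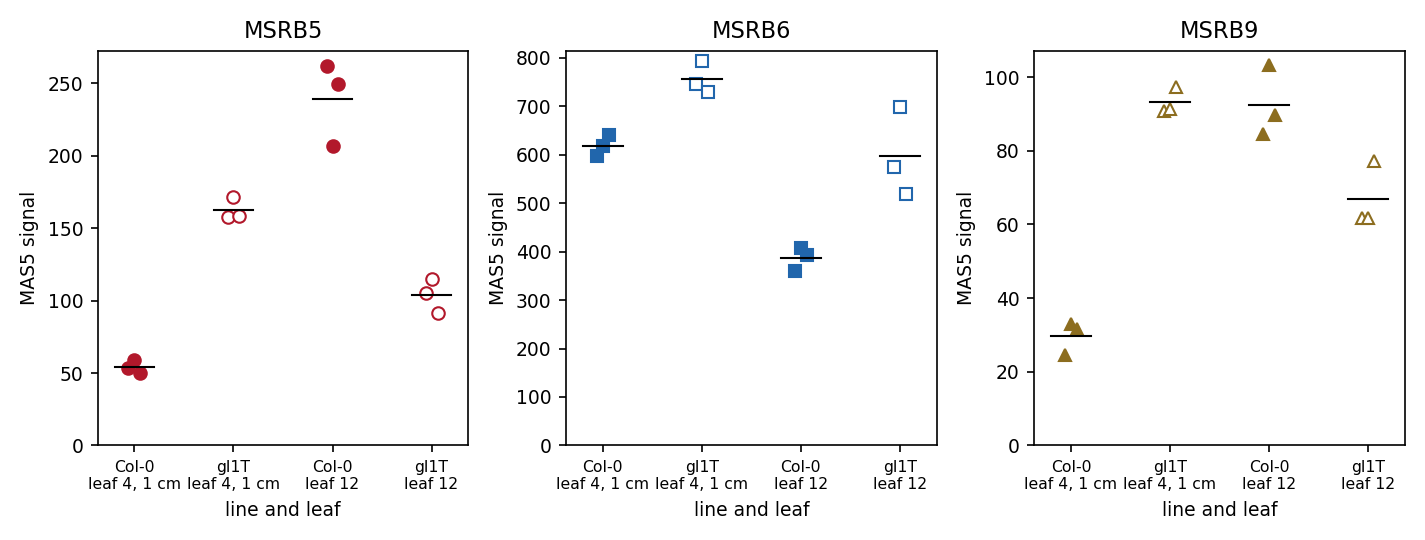
MAS5 signal (linear axes from 0) of MSRB5, MSRB6 and MSRB9 in Col-0 (filled) and gl1T (open) for leaf 4 at 1 cm and leaf 12, with 3 arrays a set and a line at the mean. MSRB5 is higher in gl1T leaf 4 (162 against 54.2) and lower in gl1T leaf 12 (104 against 239). MSRB6 is higher in gl1T in both leaves. The Col-0 leaf 4 set is labelled as contaminated with soil.

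Within leaf 7, both genes were lower in the petiole, the leaf stalk, than in the blade. MSRB5 read 183, 187 and 193 in the petiole, 414, 396 and 421 in the proximal and 485, 465 and 583 in the distal part. MSRB6 read 222, 239 and 200 in the petiole, 408, 375 and 368 in the proximal and 349, 335 and 364 in the distal part. No petiole array of either gene reached a blade array. Petiole minus mean blade was -1.25 ± 0.088 for MSRB5 and -0.72 ± 0.081 for MSRB6, in a comparison where 2.82% of probe sets passed as lower. Distal minus proximal was 0.31 ± 0.10 for MSRB5 and -0.13 ± 0.094 for MSRB6. The interval for MSRB6 ran from -0.32 to 0.055, and 0.62% of all tested probe sets passed. MSRB9 rose toward the tip, by 1.08 ± 0.14 in the distal part (limma, adjusted p = 3.68e-08), but by only 0.87 with a pseudocount 4 times larger and 0.93 without proximal replicate 3, too little to pass. WRKY53 and WRKY6 summed to 63.1 to 65.7 in the petiole against 136 to 214 in the blade, and their part in the petiole differences was not tested.

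Senescing and cauline leaves were each compared with the mean of the 6 rosette sets, so these comparisons, and that of the short-day sets, share their controls. MSRB6 read 10.3, 14.2 and 12.7 in senescing leaves and 16.8, 19.3 and 12.4 in cauline leaves. All 6 arrays lay below every other array of the series, the next lowest being rosette leaf 2. The differences were -3.83 ± 0.072 in senescing and -3.57 ± 0.072 in cauline leaves. MSRB6 stood at percentiles 31.0 to 35.4 of the senescing arrays and 33.0 to 39.0 of the cauline arrays, under the percentile of 40 required of a bright set. At that level the size of the difference depends on the pseudocount. The cauline value moved from -2.81 with one 4 times larger to -3.92 with 1.

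MSRB5 was also lower in both, to a smaller degree against the rosette mean. It read 138, 141 and 202 in senescing leaves, of which the highest overlapped rosette leaf 10, and 137, 119 and 144 in cauline leaves, below every rosette array. The differences were -1.48 ± 0.077 and -1.73 ± 0.077. In senescing leaves 33.1% of probe sets passed, 16.7% as lower, and in cauline leaves 14.6%, with 7.55% as lower. The cauline level had a part in the choice of MSRB6, so its cauline values only restate that choice.

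Because both genes vary so much among rosette leaves, the partner decides these sizes. Against leaf 12 alone MSRB5 was -0.57 ± 0.10 in senescing and -0.82 ± 0.10 in cauline leaves, both under 1, and against leaf 2 alone it was -3.24 and -3.49. Against leaf 2 MSRB6 was -1.92 in senescing and -1.66 in cauline leaves. With dim arrays taken at their 40th percentile, the rosette mean of MSRB6 was at least 13.9-fold and leaf 2 at least 3.48-fold above senescing leaves.

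MSRB3, of the same run of genes on the chromosome, rose in senescing leaves by 1.2 ± 0.11 (limma, adjusted p = 7.11e-14), to 146 ± 6.48. In cauline leaves MSRB3 was 1.00 ± 0.11 higher (limma, adjusted p = 4.75e-11), just under the required size before rounding, and above it under several alternatives (1.06 with a pseudocount of 1). Against leaf 2 alone the senescing difference of MSRB3 was 0.78 and did not pass. MSRB9 fell in cauline leaves by 1.38 ± 0.10 (limma, adjusted p = 3.52e-17) and had 0.13 ± 0.10 in senescing leaves (adjusted p = 0.248). Against leaf 12 alone its cauline difference was -0.88, too small to pass. MSRA5 did not pass in either. As a check of the senescing label, WRKY53 rose there by 1.68 ± 0.064 and WRKY6 by 2.70 ± 0.14 (limma, adjusted p = 3.78e-30 and 1.67e-24). WRKY53 and WRKY6, 2 of 5 listed senescence markers with a single-gene probe set, summed to 594 to 616 in senescing, 271 to 302 in cauline and 26.1 to 224 in all other leaves. The mesophyll markers RCA, PSAN and LHCB4.1 (3 of 6 listed) summed to 4415 to 4691 in senescing and 10150 to 10790 in cauline leaves, against 9603 to 15280 elsewhere. The part of these shifts in the MSRB5 and MSRB6 values was not tested.

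**Figure D4:**
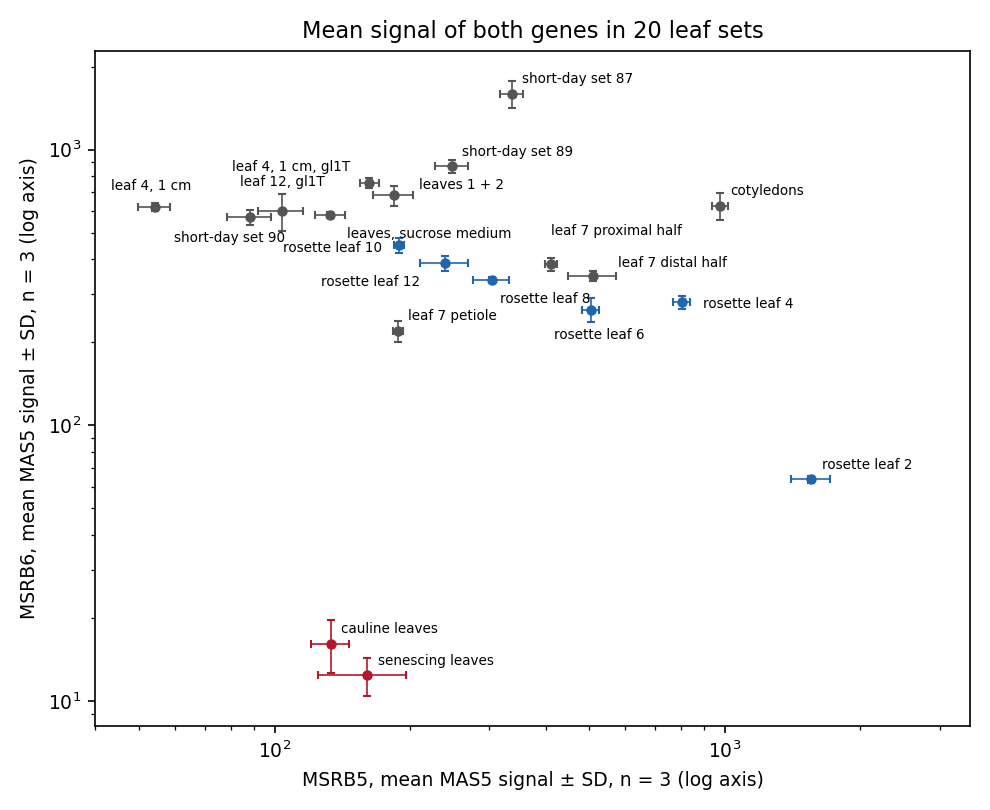
Mean MAS5 signal ± SD (n = 3 arrays) of MSRB6 against MSRB5 in the 20 leaf sets, both axes log, with rosette leaves 2 to 12 in blue and cauline and senescing leaves in red. Rosette leaves run from upper left to lower right, while cauline and senescing leaves lie far below at MSRB6 signals of 16.2 and 12.4.

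Short-day rosettes differed from the rosette mean in opposite directions for the genes. MSRB6 read 1751, 1621 and 1407 in set 87, 914, 874 and 818 in set 89, and 549, 546 and 610 in set 90. Every one of these 9 arrays exceeded every array of rosette leaves 2 to 12. The difference was 1.82 ± 0.047, in a comparison where 7.83% of probe sets passed as higher. MSRB5 read 342, 353 and 314 in set 87, 257, 262 and 223 in set 89, and 85.4, 80.1 and 99.3 in set 90. These overlapped the rosette arrays, and the difference of -1.19 ± 0.051, in a comparison where 8.93% of probe sets passed as lower, shrank to -0.28 ± 0.083 against leaf 12 alone. Day length, temperature and tissue all differ between these groups and cannot be told apart.

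Within the short-day sets both genes stood in the order 87, 89, 90. Set 87 was 2.80-fold above set 90 for MSRB6 and 3.81-fold for MSRB5. From set 87 to set 89 the differences were -0.87 ± 0.094 for MSRB6 and -0.44 ± 0.10 for MSRB5, and 3.25% of probe sets passed. From set 89 to set 90 they were -0.61 ± 0.094 and -1.43 ± 0.10, and 0.171% of probe sets passed as lower. The arrays of these sets did not overlap for either gene. MSRB9 had 0.39 ± 0.14 and 0.30 ± 0.14 in the same steps (limma, adjusted p = 0.0175 and 0.147), neither large enough to pass. The root markers PYK10 and EXPA7 (2 of 3 listed) summed to 2032 to 2133 in set 87, 1369 to 1459 in set 89 and 842 to 946 in set 90, against 7.53 to 312 in the sets grown on soil in continuous light. Only 1 of these 2 markers was bright enough to be tested, so the short-day sums come mainly from 1 gene. The part of the root markers in the short-day values was not tested.

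Leaves from sucrose medium were close to leaves 1 and 2 from soil for both genes. MSRB6 read 588, 562 and 590 against 705, 617 and 724, a difference of -0.23 ± 0.094. MSRB5 read 136, 141 and 121 against 206, 176 and 170, a difference of -0.45 ± 0.10. The sucrose-medium arrays lay below the soil arrays without overlap for both genes, and 7.21% of probe sets passed. MSRB9 rose on sucrose medium by 1.2 ± 0.14 (limma, adjusted p = 1.24e-10), a difference of 0.86 with the pseudocount 4 times larger, which did not pass. The root markers summed to 812 to 868 on the medium against 84.3 to 92.9 in leaves 1 and 2, again mainly from 1 gene. Their part in these differences was not tested.

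**Figure D5:**
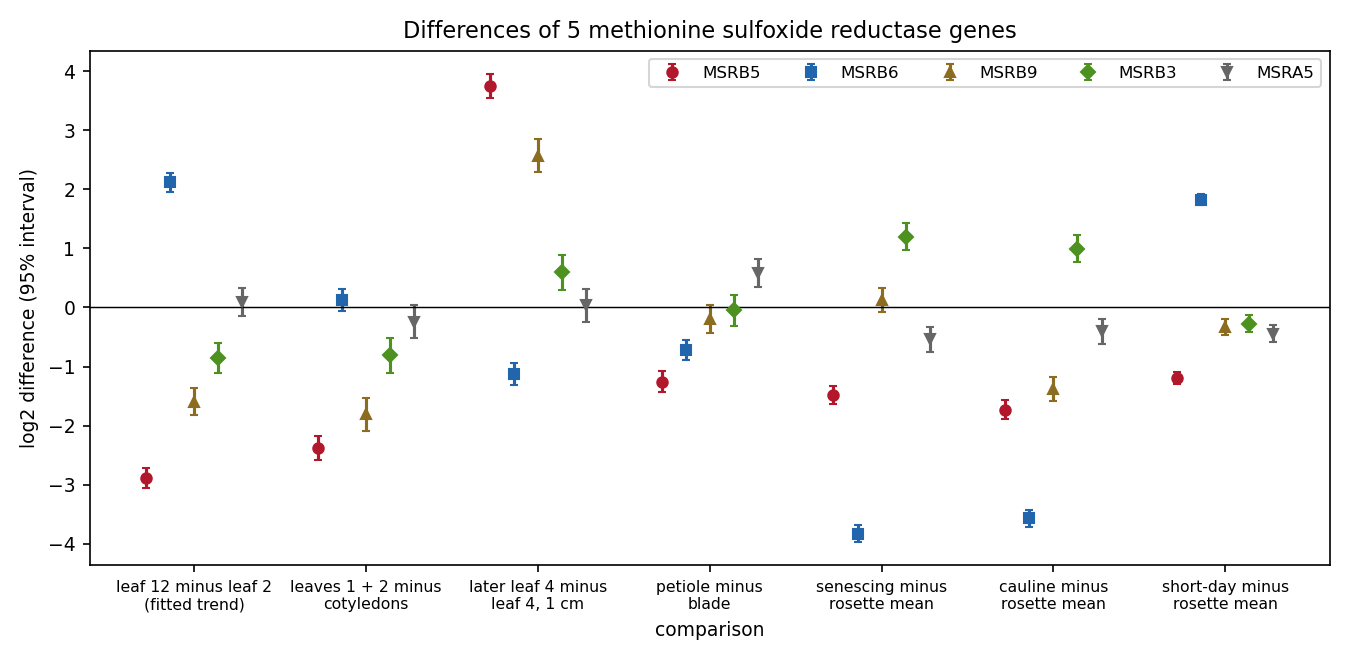
Log2 differences with 95% intervals of MSRB5, MSRB6, MSRB9, MSRB3 and MSRA5 in 7 comparisons, from the fit to all 20 sets. MSRB5 and MSRB6 lie on opposite sides of 0 for leaf position, later leaf 4 and short days, and on the same side for the petiole, senescing and cauline leaves.

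Of 14 listed Arabidopsis methionine sulfoxide reductase genes, 5 had a single-gene probe set, and the others were not analysed here. The range of set means was 9.40-fold for MSRB9, 3.41-fold for MSRB3 and 2.25-fold for MSRA5, against 28.7-fold for MSRB5 and at least 86.6-fold for MSRB6. The lowest MSRB5 set in that range is the one labelled as contaminated with soil. For MSRA5 all 19 pairs of neighbours in its order overlapped. Over all 20 set means MSRB5 correlated with MSRB9 at r = 0.601 and MSRB6 with MSRB3 at -0.814, the latter moving to -0.456 over the 18 sets without senescing and cauline leaves. MSRB5 and MSRB6 correlated at -0.091 (rho = -0.158) over 20 sets and at -0.522 (rho = -0.412) over those 18. The first value lies above 52% of the correlations of MSRB5 with 8619 named probe sets, whose median was -0.115. All these correlations are over set means that share arrays and scaling, and are descriptions.

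Of the neighbours on the chromosome outside the reductase genes, only AT4G04790 and DER2.2 were tested. KEA3, next to MSRB6, had no single-gene probe set, nor did ABCI8, MED21 or CLS. AT4G04790 and DER2.2, on either side of the reductase genes, passed in none of the 15 comparisons, the largest value of DER2.2 being 0.94 ± 0.084 in senescing leaves (limma, adjusted p = 5.80e-15). The probe set of the pseudogene AT4G04820 was too dim to be tested. The suffix of that probe set marks probes that can bind related sequences, a mark the probe sets of MSRB5 and MSRB6 do not carry. Cross-binding between the reductase genes was not tested.

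The genes whose set means ran most like those of MSRB6, among 8619 other named probe sets over 20 sets, were AT4G16155 (r = 0.941), AT3G54930 (0.935), AT1G22410 (0.934), AT3G05730 (0.926) and AT2G43535 (0.925). AT3G54930 was low in every set, its means running from 3.13 in senescing leaves to 28.9 in short-day set 89. AT3G05730 read 1375 ± 58.4 in short-day set 87, 890 ± 65.3 in rosette leaf 12, 40.2 ± 7.36 in leaf 2 and 18.7 ± 7.52 in cauline leaves. Its order of these 4 sets, picked from the 20, is that of MSRB6. In rosette leaf 10 AT3G05730 read 329 ± 56.9, below its leaf 12, whereas MSRB6 was higher in leaf 10 than in leaf 12. The most opposite were AT2G27090 (-0.963), AT5G57910 (-0.962) and AT5G39090 (-0.953). AT5G39090 read 148 ± 5.49 in cauline and 139 ± 2.08 in senescing leaves but 16.5 ± 5.62 in leaf 12. Its next highest set was rosette leaf 2, at 35.7 ± 4.02. How far cauline and senescing leaves, where MSRB6 is dim, decide these r values was not tested.

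For MSRB5 the most alike were AT1G24530 (r = 0.892), AT5G54170 (0.889), APS3 (0.881), AT4G36010 (0.860) and AT1G69760 (0.859). APS3, an ATP sulfurylase of sulfate assimilation, read 656 ± 77.9 in leaf 2, 409 ± 5.4 in cotyledons, 208 ± 8.78 in leaf 12 and 155 ± 4.02 in leaf 4 at 1 cm. In gl1T leaf 4 APS3 read 158 ± 11.6, close to Col-0, where MSRB5 was higher in the line. The most opposite were AT4G24330 (-0.821), AT5G05520 (-0.818) and PRA1.B1 (-0.816).

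Thioredoxins supply electrons to the reductases, and 9 of 24 listed genes of the thioredoxin system were tested. The listed NTRA, NTRB and numbered TRX genes were not among them. The supply to MSRB5 and MSRB6, predicted to be in the cytosol, was not tested. In senescing leaves 6 of the 9 fell and 1 rose, with a median difference of -1.27 against 0.088 over all tested probe sets, of which 16.7% passed as lower and 16.4% as higher. The y-type thioredoxin ty2 fell by 2.35 ± 0.066, the f-type TRXF2 by 2.02 ± 0.057, AT2G04700 by 1.69 ± 0.048 and the x-type THX by 1.59 ± 0.060 (limma, adjusted p from 3.05e-36 to 1.86e-30), while TY1, also of the y type, rose by 1.11 ± 0.10 (adjusted p = 2.61e-14). These 4 had the largest decreases of the 6, and f-, x- and y-type thioredoxins are plastid proteins. In cauline leaves 0 of the 9 passed, against 14.6% of all tested probe sets. Along leaf position 1 of the 9 passed, ty2, rising by 1.11 ± 0.073 (limma, adjusted p = 1.60e-19). In the later leaf 4 the plastid reductase NTRC fell by 1.06 ± 0.061 (adjusted p = 9.00e-22), and none of the list passed in the other 11 comparisons.

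Of the methionine metabolism list 5 of 19 genes were tested. In any comparison 0 to 2 of them passed, where 0.43% to 33.1% of all tested probe sets did, depending on the comparison. HMT-1, a homocysteine S-methyltransferase that makes methionine, rose toward leaf 12 by 1.74 ± 0.11 (limma, adjusted p = 4.37e-20), fell in senescing leaves by 1.70 ± 0.10 (adjusted p = 7.99e-22), fell in cauline leaves by 1.07 ± 0.10 (adjusted p = 9.94e-14) and rose in short days by 1.10 ± 0.066 (adjusted p = 1.63e-21). It also rose from cotyledons to leaves 1 and 2, by 1.11 ± 0.13 (adjusted p = 2.75e-10), where the difference of MSRB6 was 0.13. In the petiole HMT-1 was 0.97 ± 0.11 higher, not enough to pass, where MSRB6 was lower by 0.72 on the log2 scale. BCAT4, the aminotransferase that starts chain elongation of methionine for glucosinolates, fell toward leaf 12 by 2.94 ± 0.077 (limma, adjusted p = 6.99e-37) and rose in the later leaf 4 by 2.45 ± 0.092 (adjusted p = 6.43e-30), fell from cotyledons to leaves 1 and 2 by 1.42 ± 0.092 (adjusted p = 2.20e-19) and rose on sucrose medium by 1.21 ± 0.092 (adjusted p = 1.71e-16), where MSRB5 was lower. Its gl1T difference in leaf 12 exceeded that in leaf 4 by 1.22 ± 0.13 (adjusted p = 2.39e-11), where that of MSRB5 was -2.64. MGL, which breaks methionine down, rose in gl1T leaf 12 by 1.27 ± 0.18 (limma, adjusted p = 1.34e-07) and on sucrose medium by 1.5 ± 0.18 (adjusted p = 1.00e-09). The list's median was within 0.64 of 0 in every comparison.

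Of the antioxidant enzymes 6 of 30 listed genes were tested. Toward leaf 12, 4 rose and 1 fell, with a median of 1.14 against 0.0069 over all tested probe sets, of which 11.6% passed as higher and 11.4% as lower. AT3G52960 rose by 1.97 ± 0.078, AT3G11630 by 1.28 ± 0.082 and SAPX, a stromal ascorbate peroxidase, by 1.18 ± 0.075, while GR1, a glutathione reductase, fell by 1.19 ± 0.073 (limma, adjusted p from 7.05e-29 to 4.03e-20). In senescing leaves 3 fell and 1 rose, against 16.7% and 16.4% of all tested probe sets, with a median of -1.67. AT3G11630 fell by 3.25 ± 0.074, the thylakoid ascorbate peroxidase TAPX fell by 2.89 ± 0.067 and AT3G52960 fell by 2.61 ± 0.071, while GR1 rose by 1.15 ± 0.066 (limma, adjusted p from 1.06e-40 to 2.24e-22). In gl1T 0 of the 6 passed in either leaf, against 3.95% of all tested probe sets in leaf 4 and 3.82% in leaf 12. The lists hold few measured genes and nothing is called particular to them.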

How the data were processed

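Leaf RNA was hybridised to 60 single-colour ATH1 arrays. The deposited values are 1 intensity per probe set, on a linear scale, made by the authors with MAS5 per the submitters' processing notes. For its version and settings, the sources used here give nothing. No further normalization was applied.

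MSRB5, MSRB6, the gene lists and the comparisons were chosen with earlier results of these data known. Without its 64 controls the array holds 22746 probe sets. The scale was log2(signal + 6.139), whose pseudocount is the median of the arrays' 20th percentiles, and it understates changes of dim genes. Tested were the 15808 probe sets that exceeded the 40th percentile in every array of at least 1 set. All 20 sets were fitted together with limma 3.58.1 in R 4.3.3 (lmFit, eBayes with trend, 40 residual degrees of freedom), and p-values were adjusted by Benjamini-Hochberg over the tested probe sets. Probe sets with several genes (503) or none in the annotation (8730) were not named. The leaf position value is a linear contrast over leaves 2 to 12. Tests of MSRB5 and MSRB6 that had been planned are given as differences and intervals only. The code was tested on simulated data.

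Named were both genes, measured reductase genes, up to 4 genes per list and comparison with the largest differences among those that passed (only some of these are printed), neighbours on the chromosome, and the 5 most alike and 3 most opposite genes. Text on WRKY53 was added after its values were seen. The first array of the rosette leaf 6 set is labelled leaf 4 in its tissue field and leaf 6 by its set number. It was kept with leaf 6. Its lowest r to leaf 6 arrays was 0.984 and its highest to leaf 4 arrays 0.982. Array letters are shared between sets, but deviations of arrays with the same letter correlated between -0.176 and 0.172 (median -0.00054), so the arrays were taken as unpaired. Alternatives were each array left out in turn, a move of the array with conflicting labels, other pseudocounts, filters and partner sets, quantile normalization, array weights, a fit of the compared sets alone and a replicate block. Python 3.11.15 with matplotlib 3.10.9 drew the figures.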

Additional observations from a re-analysis of the deposited data

Results flagged for a closer look

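The difference between gl1T and Col-0 changed between leaves for MSRB5. Every gl1T array was higher in leaf 4 and every gl1T array lower in leaf 12, and leaf 12 minus leaf 4 was -2.64 on the log2 scale. It is given as a description with no test, because the gene was chosen on these arrays. For MSRB9 the same quantity was -1.92, with the gl1T arrays higher in leaf 4 and lower in leaf 12. It passed its interaction test (limma, adjusted p = 4.82e-12). Both values rest on the Col-0 leaf 4 set labelled as contaminated with soil, whose part was not tested.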

How the results depend on the processing

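Of 30 comparisons of MSRB5 and MSRB6, 27 kept their direction and their side of a log2 difference of 1 under every alternative run, and none reversed. The partner set mattered most. Against rosette leaf 12 alone, MSRB5 was -0.57 in senescing, -0.28 in short-day and -0.82 in cauline leaves, each under 1, and MSRB6 was -4.15 in cauline leaves. Against leaf 2 alone the cauline values were -3.49 and -1.66. MSRB6 in cauline leaves was -2.81 with a pseudocount 4 times larger and -3.92 with a pseudocount of 1, and MSRB5 was -1.90 after quantile normalization. With one array left out the cauline value of MSRB6 ran from -3.67 to -3.44, the latter without cauline replicate 3. Alternatives for the cauline contrast and for MSRB3, MSRB9 and MSRA5 were chosen after seeing the data.

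Differences of other reductases that changed sign were all too small to pass. After quantile normalization they were -0.067 for MSRB9 in senescing leaves and, for MSRA5, -0.017 in short-day set 89 minus 87 and -0.024 on sucrose. MSRB9 was -0.72 in senescing leaves against leaf 2, and in short days against leaf 12 MSRB3 was 0.047 and MSRB9 0.165. The cause was not tested. With each array left out in turn, MSRA5 ran from -0.070 to 0.197 on sucrose, -0.028 to 0.081 in the later leaf 4 and -0.028 to 0.210 in set 89 minus 87. MSRB3 ran from -0.125 to 0.164 in gl1T leaf 4, -0.162 to 0.044 in leaf 12 minus 1 cm leaf 4 and -0.119 to 0.0070 in the petiole, where MSRB9 ran from -0.310 to 0.010.

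Probe sets that passed fell by over 1.5 times with the larger pseudocount in 14 of 15 comparisons, from 3642 to 2392 for leaf position, 2313 to 1456 cauline, 624 to 356 and 604 to 334 for gl1T leaves 4 and 12, 1297 to 796 for their difference, 1095 to 529 in the petiole, 98 to 24 distal, 1821 to 1092 from cotyledons to leaves 1 and 2, 3866 to 2564 and 723 to 448 for later leaf 4 and leaf 12 against 1 cm leaf 4, 2649 to 1664 in short days, 514 to 248 and 68 to 14 between short-day sets and 1140 to 619 on sucrose. A pseudocount of 1 gave 210 distal and 789 and 154 between short-day sets. Against leaf 2 the counts were 1477 cauline and 4694 short-day, and against leaf 12 they were 4467 and 1167.

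In a fit with the replicate block, MSRB5 was -1.22 and MSRB6 1.80 in short days, MSRB5 -1.52 and MSRB6 -0.67 in set 90 minus 89, and no difference of either gene crossed 1. MSRB6 in cauline and senescing leaves is limited by signal over background.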
